A study of Mus musculus with 6 samples.

Results

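Described here are 10 mouse genes of the integrated stress response (ISR), out of 32371 genes with counts in the table. They are Ddit3, Atf4, Atf5, Chac1, Trib3, Asns, Psat1, Phgdh, Sesn2 and Cebpg, taken as a list of names and matched to Ensembl identifiers, and all 10 were found. The RNA-Seq compared adult C57BL/6J mice (both sexes, by the general methods of the study), 3 libraries from eyes given AAV2-GFP and 3 from eyes given AAV2-Ezh2-Y726D, a form of the histone methyltransferase Ezh2 that lacks methyltransferase activity. In both groups the virus was put into the vitreous 2 weeks before optic nerve crush (ONC), and cells were collected 3 days after the crush, so that every library came from injured retina and no uninjured group was part of the comparison. Live cells positive for CD90.2, the product of Thy1, were sorted from dissociated retina. The virus is not limited to retinal ganglion cells (RGCs), and whether retinas of several mice went into 1 library is not given in the sources used here. P values therefore measure the spread between these libraries, which may be partly technical.

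The ISR is a shared answer of cells to several stresses. Kinases that sense unfolded proteins, lack of amino acids, viral RNA or lack of heme phosphorylate the translation factor eIF2α, which lowers protein synthesis in general but raises translation of Atf4, whose protein then turns on genes for amino acid supply, redox balance and, through Ddit3 (CHOP), cell death. In RGCs the branch from the kinase PERK to ATF4 and CHOP is known to be engaged by axon injury. Because ATF4 and ATF5 are controlled largely at translation, mRNA levels give only a part of the state of the pathway.

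Total counts lay between 9333244 and 23782520 per library. A single rRNA gene, CT010467.1, held 50.9% of GFP replicate 2 and 52.2% of GFP replicate 3, against 2.55% to 16.1% of the other 4 libraries, which left 5745352 and 4460732 other counts in these GFP libraries. Ezh2 itself was at 22.7 to 26.4 CPM (counts relative to the TMM-scaled size of the library) in GFP and at 65.2 to 65.6 CPM after AAV2-Ezh2-Y726D. The libraries also held much RNA of cells other than RGCs, with the Müller glia gene Glul at 2740 to 3030 CPM, while the RGC genes Slc17a6, Rbpms and Pou4f2 were at 76.2 to 86.1, 12.4 to 16.9 and 0.983 to 1.82 CPM. Values of the ISR genes are thus those of a mixture, in which fewer cells of a type and less RNA per cell cannot be told apart.

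ATF4 binds DNA as a dimer with C/EBP proteins at a composite element, the CARE, whose core was searched here as TGATGNAA on both strands in RefSeq promoter windows of 300 bases (GRCm38.p6, 250 bases before to 50 after the start). All 10 genes had a window. The core was found for Chac1, Trib3 and Asns, that is in 3 of the 12 windows of the 10 genes, and in 3.97% of all 32851 windows. The variant TGACGNAA, which cannot overlap the core at the same bases, was found for Chac1 alone among the 10 genes and in 1.59% of all windows. These stretches are shown because they set a gene that fell with Ezh2-Y726D (Trib3) beside a pair that did not pass the test (Chac1, Asns). Matches are in capitals, and each stretch reads along the gene's strand.
Chac1: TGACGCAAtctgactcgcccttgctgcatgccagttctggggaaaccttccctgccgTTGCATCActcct
Trib3: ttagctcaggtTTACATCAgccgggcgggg
Asns: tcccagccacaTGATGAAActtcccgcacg
The Chac1 stretch is chr2:119350992-119351061 on the plus strand. It holds the variant at -250 to -243 and the core, on the opposite strand, at -193 to -186 from the RefSeq start. The Trib3 stretch is chr2:152344028-152344057 on the minus strand, with the core on the opposite strand at 15 to 22 bases from the RefSeq start, which is upstream of the GENCODE start. The Asns stretch is chr6:7693214-7693243 on the minus strand, with the core at -23 to -16 from the RefSeq start and inside the first exon of GENCODE vM21. A match is a description of letters, and a window without one says nothing of elements elsewhere in the gene.

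After Ezh2-Y726D overexpression, 5 of the 10 genes, Phgdh, Ddit3, Trib3, Atf4 and Cebpg, were lower and none was higher at an adjusted P under 0.05 in edgeR's quasi-likelihood test, a direction that turned for all of them but Trib3 when library totals were the scaling, and that all 5 had, with a call, when CT010467.1 was left out of those totals. Adjusted P values are Benjamini-Hochberg values of that test over all genes tested, unless another tool is named. Over all 18138 genes tested, 13.6% were lower and 13.9% higher by the same rule. The differences were small. With a fold change over 1.5 as well, the threshold of the study for a differentially expressed gene, only Trib3 was left among the lower genes and none among the higher, against 5.5% and 2.52% of all genes. All 10 genes passed the filter on low counts. The median log2 fold change of the 10 was -0.11 (range -0.64 to 0.14), against 0.00 over all genes tested, and 8 of the 10 estimates were below 0. At an unadjusted P under 0.05 in edgeR, a rule for which no share over all genes is given here, 6 were lower and 1, Atf5, was higher. DESeq2 called 3 lower (Ddit3, Trib3 and Phgdh) and 0 higher, where it called 1648 lower and 1792 higher of 17309 genes. For 6 genes all Ezh2-Y726D libraries lay below all GFP libraries, and for Atf5 all lay above, against 18.9% and 19.7% of all genes. The plot of levels in every library shows these groups for each gene.

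**Figure D1:**
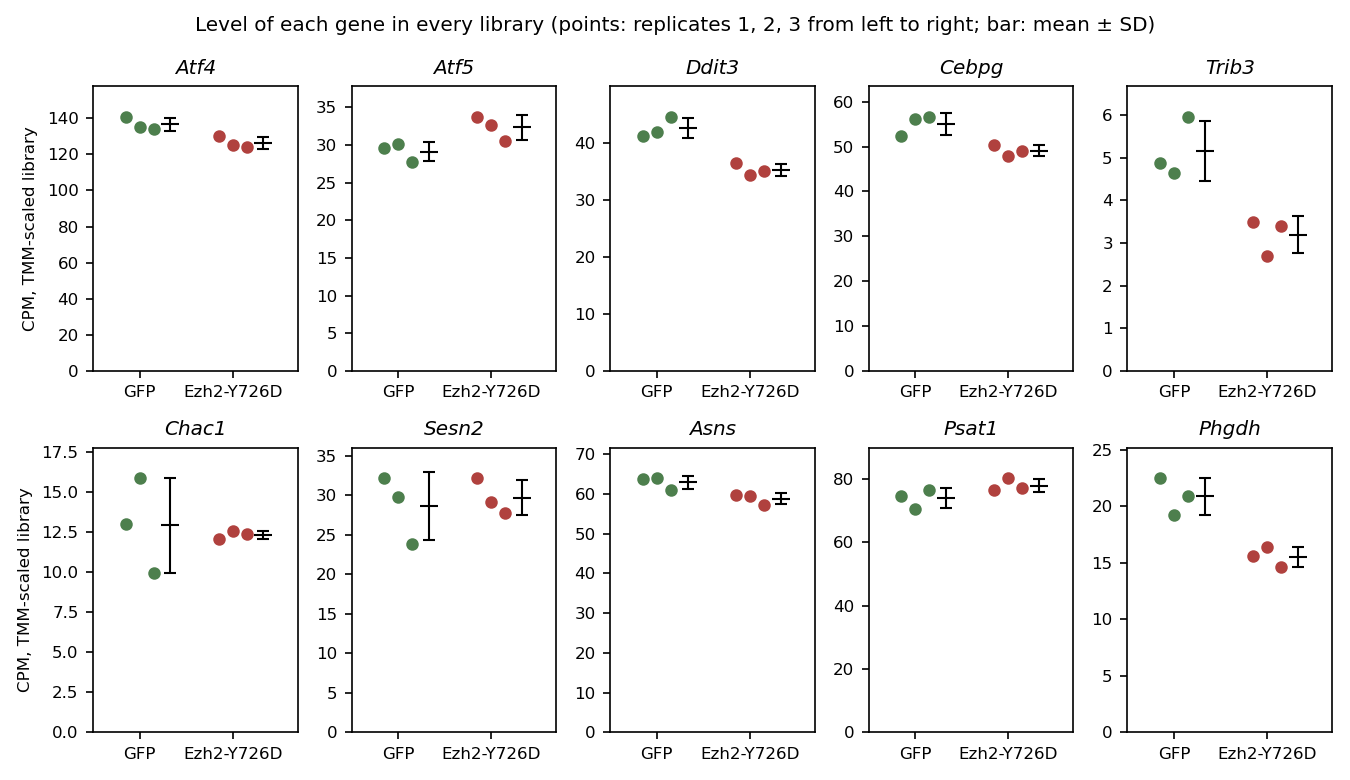
Level of each of the 10 genes in CPM of the TMM-scaled library (vertical axis, from 0) in the 3 GFP and 3 Ezh2-Y726D libraries, points being replicates 1, 2 and 3 from left to right and the bar the mean ± SD. Ddit3, Atf4, Trib3, Phgdh, Cebpg and Asns show no overlap, with Ezh2-Y726D lower. Chac1 and Sesn2 are spread widest in GFP relative to their means, with coefficients of variation of 22.9% and 15%.

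Markers of other cell types moved between the groups, and their part in the results on the ISR genes was not tested. The summed level of 8 microglia and phagocyte genes was 1080 to 1200 CPM in GFP and 479 to 563 CPM after Ezh2-Y726D, with 6 of 8 lower and 1 (P2ry12) higher at an adjusted P under 0.05. Most of the fall in this sum was Lyz2 (means of 506 and 118 CPM). Cx3cr1 changed by -0.40 and P2ry12 by 0.33 on the log2 scale, and Tmem119 (-0.14) was not called. Cone genes (5 of 5 lower, sum 344 to 360 against 228 to 238 CPM), bipolar cell genes (5 of 6 lower and 1 higher, sum 960 to 977 against 791 to 815 CPM) and T and B cell genes (4 of 5 lower, sum 34.0 to 38.5 against 18.5 to 22.1 CPM) were also lower. Endothelial and pericyte genes were lower in 4 of 6, with a sum of 930 to 985 against 824 to 876 CPM. Most of this sum was Kdr (means of 763 and 696 CPM), and Cldn5 and Cdh5, at under 6 CPM in every library, were not called. Amacrine cell genes were higher in all 6 that were tested of 7 (sum 833 to 891 against 1260 to 1300 CPM). Of 6 Müller glia and astrocyte genes 2 were lower and 1 higher, with a sum of 6590 to 6910 against 6550 to 6850 CPM. The higher gene was Dkk3 (means of 1840 and 2080 CPM), and the other 5 estimates were below 0, among them Glul (means of 2970 and 2790 CPM), which was not called. Of the 8 RGC genes, Isl1 was lower (means of 49.2 and 33.3 CPM), Pou4f1 higher and 6 not called. Their sum, 362 to 375 CPM in GFP and 335 to 361 CPM after Ezh2-Y726D, was lower mostly through Isl1. No marker was at 0 in all libraries. Among the lists reported here, the sums of microglia, T and B cell, cone, bipolar and endothelial genes were thus lower in the same libraries as the 5 ISR genes. The sum of RGC genes was also lower there, by a small gap, that of amacrine cell genes was higher, and those of Müller glia and astrocyte genes overlapped. For the sums that were lower, fewer of these cells among those sorted cannot be told apart from less of the 5 mRNAs per cell.

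Atf4 (ENSMUSG00000042406, chromosome 15, 80255184 to 80257541, plus strand, GRCm38) encodes the transcription factor at the centre of the response. It was at 141, 135 and 134 CPM in GFP replicates 1, 2 and 3, and at 130, 125 and 124 CPM after Ezh2-Y726D. The groups did not overlap, but the gap between the nearest libraries was small. It changed by -0.12 on the log2 scale (standard error 0.041, adjusted P = 0.0248), to 0.919 of the GFP level. The call did not hold without GFP replicate 1 (adjusted P = 0.19), without Ezh2-Y726D replicate 2 (0.0765) or without Ezh2-Y726D replicate 3 (0.121) in the same edgeR test, where leaving out 1 library gave 0.0201 to 0.19. DESeq2 gave an adjusted P of 0.0688. With counts thinned to the shallowest library the estimate was -0.06 (edgeR adjusted P = 0.468).

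Ddit3 (ENSMUSG00000025408, chromosome 10, 127290774 to 127296288, plus strand) encodes CHOP, a C/EBP family protein induced by ATF4 and linked to apoptosis under lasting stress. Its levels were 41.2, 41.9 and 44.6 CPM in GFP and 36.4, 34.3 and 35 CPM after Ezh2-Y726D. Every Ezh2-Y726D library was below every GFP library, with a wider gap than for Atf4. The gene fell by 0.26 on the log2 scale (standard error 0.058, adjusted P = 0.00111), and with 1 library left out by 0.23 to 0.29, each time with a call. Of its 1713 exonic bases, 10.9% overlap other genes of the annotation. Among them are a second entry named Ddit3 on the same strand, which is not among the genes with counts, and the methionyl-tRNA synthetase gene on the opposite strand (Mars in GENCODE vM21, Mars1 in the lists). As the annotation and strand setting of the counting are not given in the sources used here, the count of Ddit3 is uncertain to that extent.

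Cebpg (ENSMUSG00000056216, chromosome 7, 35046422 to 35056573, minus strand) encodes C/EBPγ, a dimer partner of ATF4. It was measured at 52.3, 56.1 and 56.7 CPM in GFP and at 50.3, 47.9 and 49.0 CPM after Ezh2-Y726D. The highest Ezh2-Y726D library was thus just under the lowest GFP library. The log2 fold change of -0.15 (standard error 0.054) was the weakest call of the list, with an adjusted P of 0.0449. It was lost without GFP replicate 2 (adjusted P = 0.129), GFP replicate 3 (0.126), Ezh2-Y726D replicate 2 (0.13) or Ezh2-Y726D replicate 3 (0.101) in edgeR, with a range of 0.0249 to 0.13 over the 6 libraries left out in turn, and in DESeq2 (0.142). With GFP replicate 1, the GFP library with little rRNA, as the only control library, Cebpg changed by -0.09 (edgeR adjusted P = 0.375). Over 1.37% of its exonic bases it overlaps Gm44836 on the same strand and Gm45095 on the opposite strand, so that its count is uncertain to that extent.

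Atf5 (ENSMUSG00000038539, chromosome 7, 44812256 to 44816658, minus strand), a relative of Atf4 that acts in the mitochondrial stress response, was the only gene of the list with all Ezh2-Y726D libraries on the high side. Its levels were 29.6, 30.1 and 27.7 CPM in GFP and 33.8, 32.7 and 30.6 CPM after Ezh2-Y726D. The nearest libraries of the groups were almost level. The log2 fold change of 0.14 (standard error 0.064, 95% interval 0.01 to 0.27) had a P of 0.0346 and an adjusted P of 0.104, so that the gene was not called. It passed only with the replicate number as a block (edgeR adjusted P = 0.0455, against 0.0616 to 0.289 with 1 library left out). Over 4.11% of its exonic bases it overlaps Il4i1 and Nup62 on the opposite strand.

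**Figure D2:**
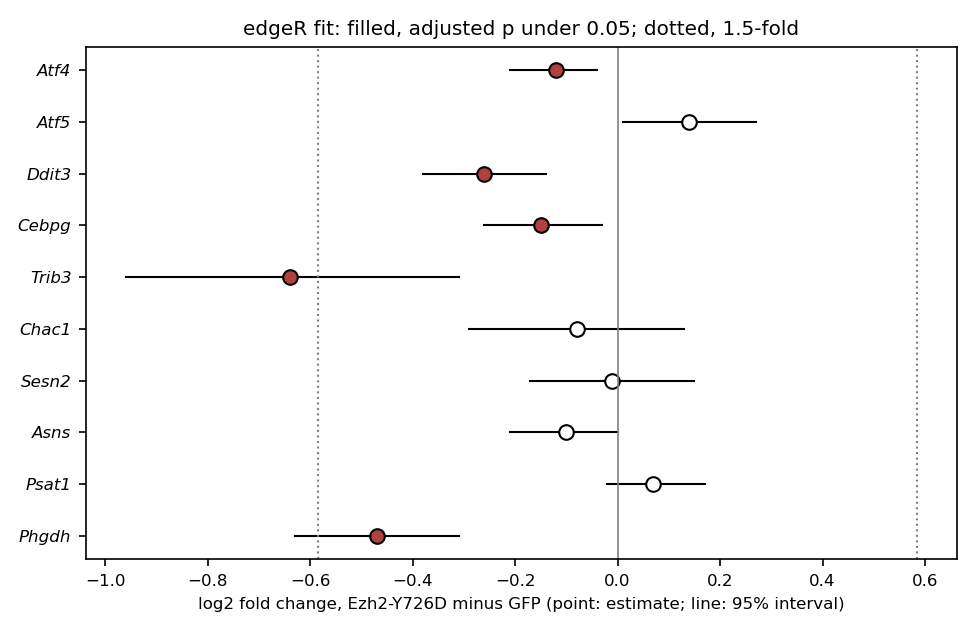
Log2 fold change of Ezh2-Y726D against GFP (horizontal axis) for the 10 genes, with the 95% interval of the edgeR fit as a line, filled where the adjusted P was under 0.05. The estimate of Trib3 (-0.64) alone lies beyond the dotted line of a 1.5-fold change, and the interval of Psat1 reaches from -0.02 to 0.17.

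Trib3 (ENSMUSG00000032715, chromosome 2, 152337422 to 152344032, minus strand) encodes a pseudokinase that is induced by ATF4 and CHOP and feeds back on them, and it had the largest change of the list. It was at 4.88, 4.64 and 5.97 CPM in GFP and at 3.5, 2.7 and 3.39 CPM after Ezh2-Y726D. The groups were well apart. It was also the gene with the fewest reads, 139, 36 and 36 counts in the GFP libraries and 93, 55 and 100 counts in the Ezh2-Y726D libraries. The change was -0.64 on the log2 scale (standard error 0.16, adjusted P = 0.00277), which is 0.643 of the GFP level, with a 95% interval of -0.96 to -0.31. With 1 library left out the estimate ran from -0.70 to -0.55 and stayed called, but without GFP replicate 3 (-0.57) or Ezh2-Y726D replicate 2 (-0.55) it was under the 1.5-fold threshold.

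Chac1 (ENSMUSG00000027313, chromosome 2, 119351229 to 119354381, plus strand) encodes an enzyme that degrades glutathione and is among the genes most readily induced by ATF4. Its levels were 13.0, 15.9 and 9.95 CPM in GFP and 12.1, 12.6 and 12.4 CPM after Ezh2-Y726D. The GFP libraries thus lay on both sides of the Ezh2-Y726D libraries, and the lowest of them, GFP replicate 3, was also the shallowest and held 60 counts of the gene. The coefficient of variation was 22.9% in GFP and 2.03% after Ezh2-Y726D. Its log2 fold change of -0.08 had a 95% interval of -0.29 to 0.13 and an adjusted P of 0.63.

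Sesn2 (ENSMUSG00000028893, chromosome 4, 132492032 to 132510501, minus strand) encodes sestrin 2, which restrains mTORC1 when leucine is short. It was at 32.2, 29.8 and 23.9 CPM in GFP and at 32.2, 29.2 and 27.8 CPM after Ezh2-Y726D. The groups overlapped almost fully, with the lowest value again in GFP replicate 3. The log2 fold change was -0.01 (95% interval -0.17 to 0.15, adjusted P = 0.952). Its sign changed with the analysis and was not called in any of them.

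Among the enzymes of amino acid synthesis, Phgdh, which makes the first step from glycolysis towards serine, fell, while Psat1, which makes the second step, did not. Phgdh (ENSMUSG00000053398, chromosome 3, 98313170 to 98339990, minus strand) was at 22.5, 19.2 and 20.9 CPM in GFP and at 15.6, 16.4 and 14.6 CPM after Ezh2-Y726D. All Ezh2-Y726D libraries were clearly below the GFP libraries. The log2 fold change of -0.47 (standard error 0.079) had the lowest adjusted P of the list, 3.31e-05. Without GFP replicate 1 it was -0.37 (edgeR adjusted P = 0.0106, the highest with 1 library left out), and with GFP replicate 1 as the only control library it was -0.54. Phgdh has many processed copies in the mouse genome. Transcripts of 16 other genes of the annotation matched it over at least 100 bases at 95% identity or more, 7 of them over at least 1000 bases, so that its count depends on how reads with several matches were treated. The copies that were listed on the same strand held 22 counts in all, against 2097 for Phgdh.

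Psat1 (ENSMUSG00000024640, chromosome 19, 15904678 to 15947337, minus strand) was at 74.6, 70.4 and 76.6 CPM in GFP and at 76.4, 80.3 and 77.0 CPM after Ezh2-Y726D. The groups overlapped only in that GFP replicate 3 was above Ezh2-Y726D replicate 1. Its log2 fold change was 0.07 (95% interval -0.02 to 0.17, adjusted P = 0.282). The intervals of Phgdh, -0.63 to -0.31, and Psat1 do not overlap, although the difference between the genes was not tested.

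Asns (ENSMUSG00000029752, chromosome 6, 7675169 to 7693254, minus strand) encodes asparagine synthetase. It was at 63.8, 64.0 and 60.9 CPM in GFP and at 59.7, 59.4 and 57.2 CPM after Ezh2-Y726D. Again no Ezh2-Y726D library reached the lowest GFP library. The log2 fold change of -0.10 (standard error 0.05) had a P of 0.046 and an adjusted P of 0.13, without a call in any alternative.

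To set levels of different genes side by side, CPM were divided by the exonic length in kb. In GFP, Atf4 was the highest of the 10, at 58.0 ± 1.5 CPM per kb (SD, n = 3 libraries), followed by Ddit3 (24.9 ± 1.05), Asns (23.0 ± 0.643), Psat1 (17.4 ± 0.742), Atf5 (14.6 ± 0.625) and Cebpg (9.79 ± 0.429). Phgdh (8.4 ± 0.664), Sesn2 (8.24 ± 1.23) and Chac1 (7.9 ± 1.81) overlapped as neighbours in this order. Trib3 was lowest at 2.43 ± 0.334 CPM per kb. After Ezh2-Y726D, Atf4 was still the highest (53.5 ± 1.28 CPM per kb) and Trib3 the lowest (1.5 ± 0.204). Asns (21.5 ± 0.504) and Ddit3 (20.6 ± 0.614) exchanged their places and overlapped, and Phgdh, at 6.25 ± 0.364 CPM per kb, came to lie below Chac1 (7.56 ± 0.154) without overlap.

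Upstream of the 10 genes, 2 of 12 kinases, phosphatase subunits and subunits of eIF2 and eIF2B were lower at an adjusted P under 0.05 and none was higher, against 13.6% and 13.9% of all genes tested, with a median log2 fold change of -0.09 (0.00 over all genes). This share lower is near that of all genes, and is not a result about the list. The 6 lists of other pathway genes, like the 10 genes, were put together with earlier results of these data known and are given as description. Eif2ak2, the interferon-induced kinase PKR, was at 32.5, 34.2 and 39.3 CPM in GFP and at 25.0, 24.7 and 25.5 CPM after Ezh2-Y726D, a log2 fold change of -0.45 (edgeR adjusted P = 4.11e-06). Eif2ak3, which encodes PERK, the kinase of the endoplasmic reticulum, went from 52.2 ± 2.94 to 45.4 ± 0.309 CPM (SD, 3 libraries a group), which is -0.18 on the log2 scale (edgeR adjusted P = 0.0137). Both kinases were lower in every Ezh2-Y726D library than in any GFP library. For the other eIF2α kinases, named to complete the family after their values were seen, the log2 fold changes were 0.06 (Eif2ak1) and 0.02 (Eif2ak4), neither called.

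Of 9 amino acid transporters, 5 were lower and 1 higher, against 13.6% and 13.9% of all genes, with a median of -0.18. Slc1a5, a glutamine carrier, had the largest fall at -0.77 (standard error 0.12, edgeR adjusted P = 1.38e-05), from 13.0, 9.42 and 8.96 CPM to 6.35, 6.32 and 7.25 CPM. Slc7a3 and Slc7a1, carriers of cationic amino acids, changed by -0.34 and -0.28. The gene that rose was Slc6a9, the glycine transporter GlyT1 that glycinergic amacrine cells use, which went from 171 ± 16.7 to 290 ± 18.2 CPM (SD, 3 libraries a group). This rise was 0.74 on the log2 scale (edgeR adjusted P = 1.01e-11). Whether it goes with the rise of the amacrine cell genes given above was not tested.

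Of 13 aminoacyl-tRNA synthetases, Tars (-0.30, edgeR adjusted P = 4.39e-05) and Vars (-0.22, adjusted P = 0.00278) were lower, a share near the 13.6% of all genes, and 12 of the 13 estimates were below 0, with a median of -0.09. Enzymes of serine, one-carbon, proline and cysteine metabolism were lower in 3 of 9, beside 13.6% of all genes, with a median of -0.21. Mthfd2, the mitochondrial folate enzyme, was at 18.8, 18.3 and 19.4 CPM in GFP and at 13.4, 14.5 and 13.6 CPM after Ezh2-Y726D, a log2 fold change of -0.45 (edgeR adjusted P = 5.76e-05). Aldh18a1, of proline synthesis, and Shmt2, the mitochondrial serine hydroxymethyltransferase, changed by -0.26 and -0.21, the latter with overlapping groups.

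Of 14 other stress genes, 13 were tested and 3 were lower (13.6% of all genes were), Stc2 (-0.49), Atf3 (-0.22) and Nupr1 (-0.20). Fgf21 did not pass the filter. The branches of the unfolded protein response that run through ATF6 and IRE1 had 5 of 15 genes lower, again beside 13.6% of all genes, and a median of -0.12. Edem1, which directs misfolded glycoproteins to degradation, fell by 0.53 on the log2 scale (edgeR adjusted P = 5.94e-08), Sdf2l1 by 0.39, and the chaperone Hspa5 (BiP) by 0.22, from 320, 330 and 318 CPM to 274, 279 and 277 CPM. In the 6 lists together, 20 of the 71 genes tested were lower and 1 was higher, where 13.6% and 13.9% of all genes were. Slc1a5 (lower) and Slc6a9 (higher) were the genes past a 1.5-fold change, as were 5.5% and 2.52% of all genes.

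**Figure D3:**
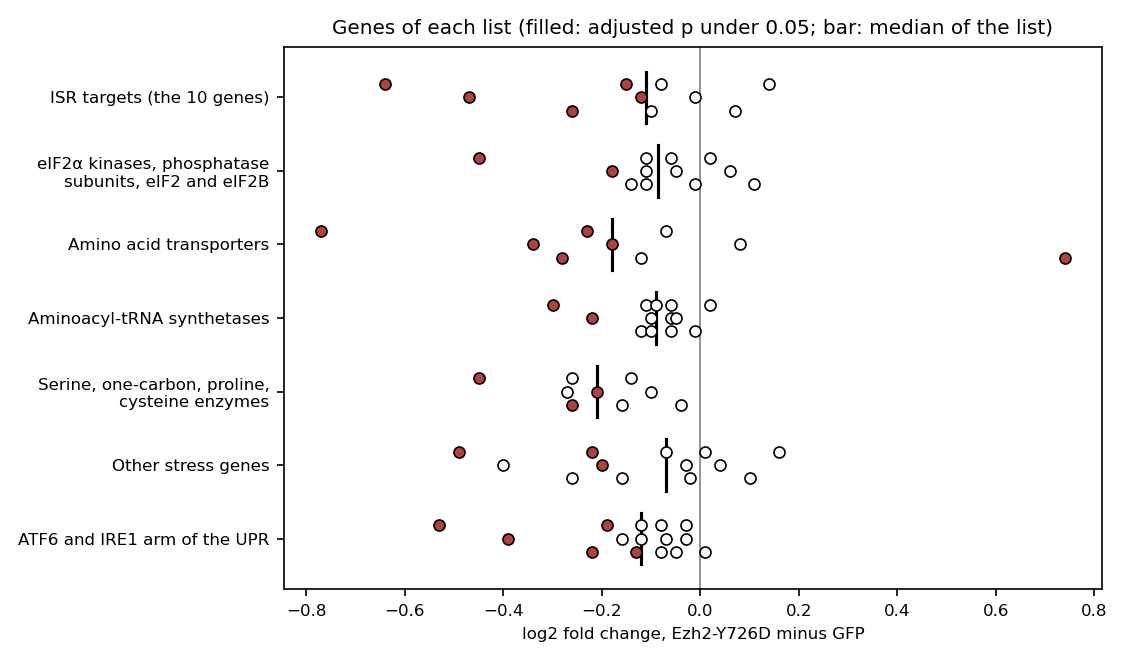
Log2 fold change (horizontal axis) of each tested gene of the 10 ISR targets and of 6 other lists of the pathway (rows), filled where the adjusted P was under 0.05, with the list's median as a bar. The medians lie between -0.21 and -0.07, and Slc6a9 at 0.74 is the filled point on the right.

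**Figure D4:**
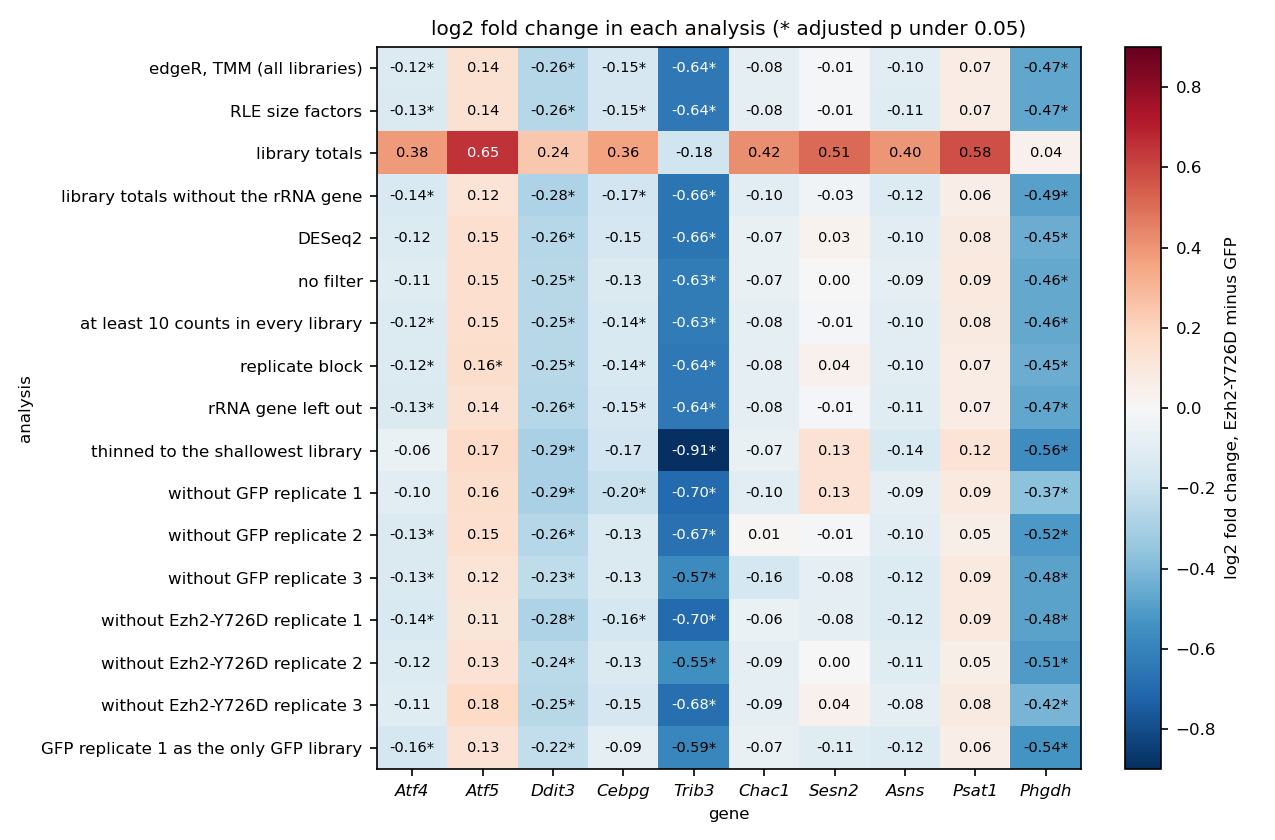
Log2 fold change of the 10 genes (columns) in each analysis (rows), on a colour scale and in figures, with a star where the adjusted P was under 0.05. Ddit3, Trib3 and Phgdh are starred in 15 of the 16 alternatives, the exception being scaling by library totals, where most values are above 0 as is the median of all genes (0.49).

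The calls of Ddit3, Trib3 and Phgdh were made in 15 of 16 alternative analyses, that of Atf4 in 9 and that of Cebpg in 7. The exception for the first group was scaling by library totals, which do not correct for the rRNA share. It moved the median of all genes to 0.49, and no gene of the list was called, where only 19 lower and 46 higher of all 18138 genes were. With the rRNA gene taken out of the library totals, the median of all genes was -0.02 and the same 5 genes were called, at -0.28 (Ddit3), -0.14 (Atf4), -0.66 (Trib3), -0.49 (Phgdh) and -0.17 (Cebpg). Relative to the median of 0.49, the differences were -0.25 for Ddit3, -0.67 for Trib3, -0.45 for Phgdh, -0.11 for Atf4 and -0.13 for Cebpg. With GFP replicate 1 as the only control library, an analysis added after the data were seen in which the spread rests on the Ezh2-Y726D libraries, 4 of the 10 genes were lower (Ddit3, Atf4, Trib3 and Phgdh), and without GFP replicate 1 also 4 (Ddit3, Cebpg, Trib3 and Phgdh).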

How the data were processed

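The data were read counts per gene from 3 GFP and 3 Ezh2-Y726D libraries. The authors deposited whole-number counts without normalization, from a stranded total RNA kit, and listed genes with at least 1 count. The submitters' processing notes name STAR 2.7.0d and GRCm38. The counting tool, annotation and strand setting are not given in the sources used here. Genes were named, located and measured in length with GENCODE vM21 on GRCm38, which held 32342 of the 32371 identifiers and may not be the authors' annotation. Genes near-identical to the 10 were found with megablast. Promoter sequences are from RefSeq (GRCm38.p6).

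Counts were compared with edgeR 4.0.16 (quasi-likelihood test, R 4.3.3) across all genes, with TMM factors, filterByExpr (10 counts, total of 15) and Benjamini-Hochberg adjustment over 18138 genes, with all 6 libraries in the fit. Standard errors were derived from the fold change and its F statistic, and 95% intervals use 27.3 degrees of freedom. Precision is lowest in GFP replicates 2 and 3, which have the fewest counts outside rRNA. An exact permutation test of 3 against 3 libraries could not reach a P of 0.05. The procedure was tested on simulated counts. The alternatives were RLE factors, library totals with and without CT010467.1, DESeq2 1.42.0, 2 other filters, a replicate block, thinning, and leaving out libraries. The named genes are the 10, and up to 3 rises and 3 falls among the called genes of each other list. Eif2ak1, Eif2ak4 and Fgf21 were named outside this rule. Genes, lists and tests were chosen with earlier results of these data known. No pair of libraries was a copy, with a chi-square per degree of freedom of at least 1.53. The result of 1 marker list is not reported here.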

Additional observations from a re-analysis of the deposited data

How the results depend on the processing

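The number of ISR genes lower after Ezh2-Y726D, 5 in the edgeR fit, was 3 with DESeq2, 3 without a filter, 3 with thinned counts, 0 with library totals, 1 with a fold change over 1.5 as well, and 3 to 5 with 1 library left out. Of all genes, 1648 of 17309 were lower with DESeq2, 2318 of 32371 without a filter and 1671 of 14905 with thinned counts. With library totals 19 of 18138 were lower, with the fold threshold 5.5%, and with 1 library left out 1853 to 2288 genes, against 2463 of 18138 in the edgeR fit. The genes lost were Atf4 and Cebpg, except with library totals, where all were lost, and with the fold threshold, where only Trib3 stayed. With thinned counts Atf4 was -0.06, against -0.12, and Cebpg -0.17, against -0.15. With library totals the median of the list was 0.39, and Ddit3, Atf4, Chac1, Asns, Phgdh, Sesn2 and Cebpg turned to 0.24, 0.38, 0.42, 0.40, 0.04, 0.51 and 0.36, with a median of all genes of 0.49. Trib3 stayed below 0 (-0.18). Without the rRNA gene CT010467.1 in the library totals, the same 5 genes were lower, the median of the list was -0.13 and that of all genes -0.02, so that the shift came with that gene's counts. Sesn2, not called in any analysis, was 0.03 with DESeq2, 0.00 without a filter, 0.13 with thinned counts and -0.08 to 0.13 with 1 library left out. Chac1 was -0.16 to 0.01 with 1 library left out, the highest value without GFP replicate 2. The cause of the changes other than those with library totals was not tested.

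With the replicate block 1 gene, Atf5, was higher, the same number was lower as without it, and Sesn2 was 0.04. The labels' numbers were not taken to pair the samples, since deviations of same-numbered libraries from their group means correlated over genes by only 0.07, 0.03 and 0.02, although each library was closest to its own number. Over all genes the block moved the calls from 2463 lower and 2525 higher to 2547 and 2675. They were 19 lower and 46 higher with library totals, and 1671 lower and 1648 higher with thinned counts. Trib3 had the fewest counts of the 10 genes, 36 each in GFP replicates 2 and 3, and was -0.91 with thinned counts, still called.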
